A study of Mus musculus with 2 samples.

Results

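Il1b-high C1q macrophages were taken from a single-cell RNA-seq data set of mouse kidney cortex as the barcodes that held at least 3 UMIs (unique molecular identifiers, each standing for 1 captured RNA molecule) of C1qa, C1qb and C1qc together and at least 5 UMIs of Il1b. Barcodes with 3 or more UMIs of Cd163, F13a1 and Ccl8 together, or with 2 or more UMIs of Arg1, were left out, so that perivascular-type and Arg1 macrophages did not enter. Of 7308 barcodes with at least 200 genes and at most 50% mitochondrial UMIs, 688 met the rule, 661 in the I-PpoI library and 27 in the wild-type library. These barcodes were chosen by the measured counts of Il1b, C1qa, C1qb, C1qc, Cd163, F13a1, Ccl8 and Arg1, which are given as a description only. The barcodes that met the same C1q, Cd163, F13a1, Ccl8 and Arg1 limits with 4 or fewer Il1b UMIs, 828 in the I-PpoI library and 204 in the wild-type library, served as the Il1b-low C1q population.

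The study sequenced 1 library per genotype with the 10x Chromium 3′ kit, from cortex that had been minced and digested with enzymes. The I-PpoI library came from mice aged 12 weeks in which I-PpoI was expressed in podocytes, and it was set against a library of wild-type mice of the same age. I-PpoI is a homing endonuclease of a slime mould that cuts a long recognition site found in ribosomal DNA and at few other places, and it is used to make double-strand breaks. The labels name neither the driver of the podocyte expression nor the number of mice per library, and a control that carries the driver alone was not analysed here. With 1 library per genotype, differences between genotypes and between libraries cannot be told apart, no difference below has a replicate check, and all intervals are exact 95% intervals that cover counting error only.

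Interleukin-1β, the product of Il1b, is made by macrophages as an inactive precursor after Toll-like receptor or cytokine signals reach the transcription factor NF-κB, and inflammasome caspases cut it into the secreted form. The secreted cytokine acts on tubular, endothelial and stromal cells of the kidney and is known for drawing neutrophils and monocytes into injured tissue. C1qa, C1qb and C1qc encode the chains of C1q, the recognition part of the classical complement pathway, and mark the resident macrophages of the mouse kidney.

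The 2 libraries differed before any gene was compared. The I-PpoI library had 4091 kept barcodes with a median of 6656 UMIs and 3.33% mitochondrial UMIs, against 3217 kept barcodes with a median of 3483 UMIs and 14.5% mitochondrial UMIs in the wild-type library. Both libraries shared 6 barcode sequences, and 0 of them were members. Outside immune cells, Il1b reached 52.7 CPM (UMIs of the gene per 1000000 UMIs) in proximal tubule barcodes of the I-PpoI library, with its 245 UMIs in 19 of 286 barcodes and up to 78 in 1 barcode, against 0.0996 CPM, which is 1 UMI, in those of the wild-type library. Free RNA was not estimated, and its part in the results was not tested.

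The members carried the genes of macrophages. A list of 15 macrophage identity genes was detected in full in both libraries and reached 10 UMIs in 660 of 661 I-PpoI members and in 27 of 27 wild-type members, against 708 of 828 and 159 of 204 Il1b-low barcodes. C1qa stood at 5916 CPM in I-PpoI members and 6773 CPM in wild-type members. Csf1r, the receptor for macrophage colony-stimulating factor, stood at 591 CPM in I-PpoI members and 431 CPM in wild-type members, and at 1.60 CPM in I-PpoI endothelial barcodes and 1.15 CPM in wild-type endothelial barcodes. Of 15 neutrophil genes, Ly6g, Camp and Ngp were at 0 UMIs in I-PpoI members, all 15 were at 0 UMIs in wild-type members, and 13 I-PpoI members reached 10 UMIs over the list. The neutrophil list summed to 292 CPM in I-PpoI members, against 91.8 CPM in I-PpoI Il1b-low barcodes. Both libraries' members therefore carried the label's macrophage genes, with neutrophil RNA in a few I-PpoI barcodes.

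Members made up 44.4% of C1q barcodes in the I-PpoI library (interval 41.8 to 47.0%, 661 of 1489) and 11.7% in the wild-type library (interval 7.85 to 16.5%, 27 of 231), a ratio of 3.80 with an interval of 2.59 to 5.81. Their share of all kept barcodes was 16.2% in the I-PpoI library and 0.839% in the wild-type library. C1q barcodes themselves were 36.4% of kept barcodes in the I-PpoI library against 7.18% in the wild-type library, so the gap in the share of kept barcodes joins a larger C1q population with a larger Il1b-high part of it. The fixed limit of 5 UMIs is easier to reach in a deeper library, and the median depth of members was 8338 UMIs in the I-PpoI library and 4536 UMIs in the wild-type library. Barcodes with at least 3000 UMIs were also thinned to 3000, and the whole rule was applied to the thinned counts. Of the C1q barcodes chosen so, 29.9% of 1378 I-PpoI and 10.3% of 146 wild-type barcodes held 5 Il1b UMIs, a ratio of 2.91 (interval 1.74 to 5.25). At 2000 UMIs the shares were 22.4% of 1470 I-PpoI barcodes and 6.11% of 180 wild-type barcodes. Thinning also lowers Cd163, F13a1, Ccl8 and Arg1 counts, so barcodes left out at full depth can enter. By full counts, 657 members and 640 Il1b-low barcodes of the I-PpoI library held 2000 UMIs. The part of such entry in the ratios was not tested. C1q barcodes with any Il1b UMI were 66.7% of the I-PpoI and 40.7% of the wild-type population, while 3.56% of I-PpoI endothelial barcodes (median 6187 UMIs) and 0.548% of wild-type endothelial barcodes (median 3567 UMIs) held 1. The share of Il1b-high barcodes was thus above that in the wild-type library at every depth compared, and at 10 Il1b UMIs instead of 5 the ratio was 6.60.

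**Figure D1:**
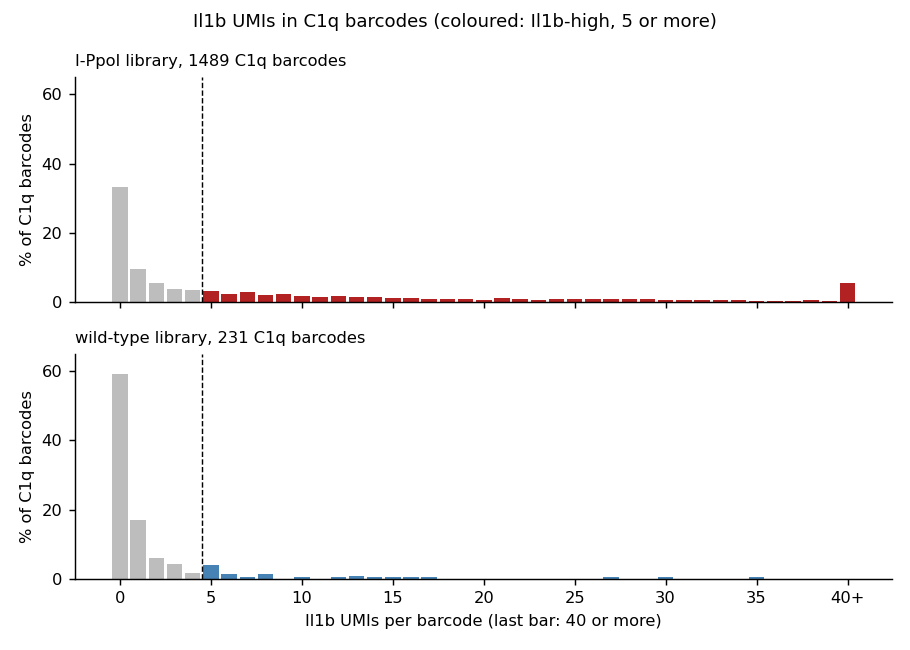
Share of C1q barcodes (y axis, %) by their number of Il1b UMIs (x axis, last bar 40 or more), for the I-PpoI library above and the wild-type library below, with members (5 or more UMIs) coloured. The I-PpoI distribution has 44.4% of its barcodes at 5 or more UMIs and a long right tail, while the wild-type distribution has 11.7% there.

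Il1b counts spread widely within the members. An I-PpoI member held 5 to 117 Il1b UMIs with a median of 16 and quartiles of 9 and 28, and a wild-type member held 5 to 35 with a median of 8. The I-PpoI members included 44 barcodes with 50 or more Il1b UMIs and 193 with under 10. Per depth the libraries lay closer together, at 1885 CPM for the median I-PpoI member and 1805 CPM for the median wild-type member. Summed over members, Il1b stood at 2293 CPM in the I-PpoI library (interval 2255 to 2331) and 2454 CPM in the wild-type library (interval 2182 to 2750), and in Il1b-low barcodes at 120 CPM in the I-PpoI and 144 CPM in the wild-type library. Members held 48.2% of all Il1b UMIs of the I-PpoI library and 34.9% of those of the wild-type library. Barcodes with 5 or more Il1b UMIs but fewer than 3 C1q UMIs (below, without C1q) that carried S100a8 and S100a9, the neutrophil calgranulins, held 19.4% of the I-PpoI library's and 37.7% of the wild-type library's Il1b UMIs, at 13916 CPM in the I-PpoI and 10782 CPM in the wild-type library.

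The limit of 5 UMIs cut through a continuous distribution. In the I-PpoI library, 46 barcodes just inside it at 5 UMIs had 78.3 CPM of Cd83, 539 CPM of Ccl3, 626 CPM of Ccl4 and 153 CPM of Nfkbiz. Just outside, the 50 barcodes at 4 UMIs had 91.2 CPM of Cd83, 380 CPM of Ccl3, 594 CPM of Ccl4 and 96.4 CPM of Nfkbiz. In the wild-type library 9 barcodes stood at 5 UMIs and 4 at 4 UMIs.

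Cd83, Ccl3, Ccl4 and Nfkbiz, the other genes that mark this population, took no part in the rule. Cd83 encodes a surface protein of activated antigen-presenting cells, Ccl3 and Ccl4 encode CC chemokines that draw leukocytes, and Nfkbiz encodes IκBζ, a nuclear co-regulator of NF-κB. Cd83 stood at 361 CPM in I-PpoI members (interval 346 to 376) and 70.8 CPM in I-PpoI Il1b-low barcodes (interval 64.1 to 78.1), and at 456 CPM in wild-type members (interval 343 to 593) and 83.9 CPM in wild-type Il1b-low barcodes. Ccl3 stood at 731 CPM in I-PpoI members and 223 CPM in I-PpoI Il1b-low barcodes, and at 1840 CPM in wild-type members and 207 CPM in wild-type Il1b-low barcodes. All 4 genes were higher in members than in Il1b-low barcodes of the same library, by sums whose intervals do not overlap. Ccl4 stood at 1862 CPM in I-PpoI members and 390 CPM in I-PpoI Il1b-low barcodes, and at 5347 CPM in wild-type members and 834 CPM in wild-type Il1b-low barcodes. Nfkbiz stood at 348 CPM in I-PpoI members and 79.7 CPM in I-PpoI Il1b-low barcodes, and at 315 CPM in wild-type members and 68.7 CPM in wild-type Il1b-low barcodes. The ratios were largest for Cd83 in the I-PpoI library (5.09, interval 4.58 to 5.68) and for Ccl3 in the wild-type library (8.88, interval 7.22 to 10.9).

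Counting barcodes gave the same order. A UMI of Cd83 was found in 69.3% of I-PpoI members, 24.5% of I-PpoI Il1b-low barcodes and 0.839% of I-PpoI endothelial barcodes, at median depths of 8338, 6415 and 6187 UMIs. A UMI of Nfkbiz was found in 75.2%, 26.7% and 18.0% of the same barcodes. Thinned to 2000 UMIs, with 657 members and 640 Il1b-low barcodes of the I-PpoI library deep enough, Cd83 was found in 39.9% of members and 10.3% of Il1b-low barcodes, Ccl3 in 48.1% and 22.7%, Ccl4 in 57.5% and 22.3%, and Nfkbiz in 44.7% and 12.8%. The thinned endothelial barcodes of that library gave 0.482% for Cd83, 0.723% for Ccl3, 0.964% for Ccl4 and 4.58% for Nfkbiz. The markers also occurred together: all 4 were found in 38.6% of I-PpoI members (255 of 661) and 3.99% of I-PpoI Il1b-low barcodes, and none in 3.63% of members (24 of 661) and 38.5% of Il1b-low barcodes. Among wild-type members, 8 of 27 held all 4 and 1 of 27 held none, against 2.45% and 32.4% of wild-type Il1b-low barcodes. After thinning to 2000 UMIs, all 4 remained in 11.3% of I-PpoI members and 1.09% of I-PpoI Il1b-low barcodes.

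**Figure D2:**
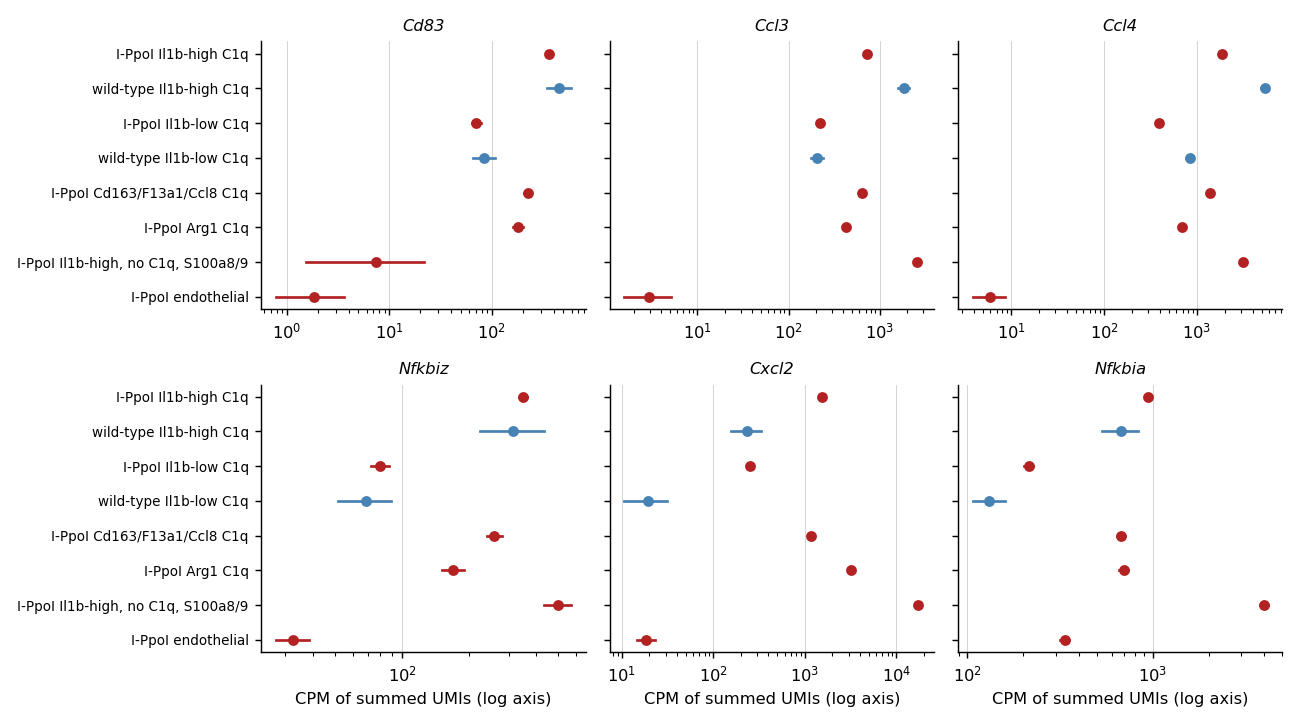
Summed level (CPM, log axis) of 6 genes in 8 populations, with the I-PpoI library in red and the wild-type library in blue and bars for exact 95% Poisson intervals. Cd83 is higher in members than in any other population shown, whereas Cxcl2 in the I-PpoI library is highest in the S100a8 and S100a9 barcodes without C1q.

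Other macrophage populations of the I-PpoI library shared part of the pattern. Cd83 stood at 361 CPM in members, 224 CPM in Cd163, F13a1 and Ccl8 C1q barcodes, 180 CPM in Arg1 C1q barcodes and 7.44 CPM in the S100a8 and S100a9 barcodes without C1q. Ccl4 stood at 1862 CPM in members, 1379 CPM in Cd163, F13a1 and Ccl8 barcodes, 685 CPM in Arg1 barcodes and 3115 CPM in S100a8 and S100a9 barcodes. Cxcl2 followed another order, with 1557 CPM in members, 1169 CPM in Cd163, F13a1 and Ccl8 barcodes, 3201 CPM in Arg1 barcodes and 17443 CPM in S100a8 and S100a9 barcodes. Compared with the S100a8 and S100a9 barcodes, members were thus higher in Cd83 and lower in Cxcl2 and Il1b.

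The whole transcriptome of members was next set against that of Il1b-low barcodes of the same library, since both share library, digestion and genotype. A gene was tested if it held at least 50 UMIs over both sums and called if the ratio of its CPM values, with 10 CPM added to each, passed 2-fold. In the I-PpoI library 64 of 9393 genes (0.681%) were called higher in members and 141 (1.5%) lower. In the wild-type library 45 of 1983 genes (2.27%) were called higher in its 27 members and 124 (6.25%) lower. Its Il1b-low barcodes held 786321 UMIs against 120631 in members. A gene could thus pass the minimum through Il1b-low barcodes alone, so the filter favours lower calls in that library. With 20 UMIs required per gene 108 genes were higher and 483 lower there, and with 200 UMIs 17 and 14. In the I-PpoI library, the 15 genes with the lowest ratios included Umod and Slc12a1 of the thick ascending limb, Plvap of capillary endothelium and Klk1 of the distal nephron.

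The lower calls of the I-PpoI library followed a few Il1b-low barcodes. Klk1 held 722 UMIs in I-PpoI Il1b-low barcodes, and 53.2% of them sat in 1 barcode. A list of 10 genes of distal and injured epithelium summed to 94.6 CPM in I-PpoI members and 1073 CPM in I-PpoI Il1b-low barcodes, endothelial genes to 26.9 and 256 CPM, and haemoglobin and other erythroid genes to 198 and 3729 CPM. Barcodes were then left out if they held under 10 UMIs of the macrophage identity list or 10 or more of other cell types' markers. This step was chosen after seeing the data. Of the I-PpoI Il1b-low barcodes, 708 of 828 met the macrophage limit, and the parts of the limits were not told apart. After the step the I-PpoI library kept 61 genes called higher in members but only 5 of 8535 called lower. Those 5 were Fabp5, Cxcl13, Gpnmb, Ifit3 and Cxcl9. In the wild-type library the same step left 35 genes higher and 89 lower.

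Within the interleukin-1 system, Nlrp3 and Il1a were higher in members of the I-PpoI library, and genes that process the cytokine stood at similar levels there. Of 21 tested genes of the system in the I-PpoI library, 2 were called higher in members and 0 lower, beside 0.681% and 1.5% of all genes. Their median log2 ratio was 0.12 beside −0.05 over all genes. Nlrp3, the sensor of the inflammasome that activates caspase-1, stood at 76.1 CPM in I-PpoI members and 26.5 CPM in I-PpoI Il1b-low barcodes, a ratio of 2.87 (interval 2.38 to 3.48). Il1a, which encodes interleukin-1α, stood at 43.0 CPM (75 of 661 barcodes) in members and 12.7 CPM (23 of 828) in Il1b-low barcodes. Il1rn, the gene of the receptor antagonist, stood at 37.6 and 14.8 CPM, a log2 ratio of 0.94 that missed the 2-fold call. Casp1, whose protease cuts pro-interleukin-1β, stood at 28.0 CPM in members and 29.7 CPM in Il1b-low barcodes, a ratio of 0.944 (interval 0.758 to 1.18). Pycard, the adaptor between sensor and caspase, stood at 210 and 242 CPM, and Gsdmd, whose cleaved product forms the pore through which the cytokine leaves, at 33.3 and 29.8 CPM. In the wild-type library 1 gene of the system, Pycard, held enough UMIs to be tested, and Nlrp3 held 4 UMIs in members. Thinned to 2000 UMIs, Nlrp3 was found in 1 of 27 wild-type members and 21 of 150 wild-type Il1b-low barcodes.

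Inhibitors of NF-κB led the NF-κB list. Of 23 tested genes in the I-PpoI library 6 were called higher in members and 0 lower, beside 0.681% and 1.5% of all genes. Their median log2 ratio was 0.30. Tnfaip3, whose product A20 ends signalling to NF-κB, stood at 171 CPM in I-PpoI members and 28.6 CPM in I-PpoI Il1b-low barcodes, a ratio of 5.98 (interval 5.06 to 7.10). Nfkbia, which encodes the inhibitor IκBα, stood at 940 CPM in I-PpoI members and 214 CPM in I-PpoI Il1b-low barcodes, and at 671 CPM in wild-type members and 131 CPM in wild-type Il1b-low barcodes. Tnip3, a partner of A20, stood at 80.7 and 15.7 CPM in the I-PpoI library, and Nfkbid and Nfkbie, which encode further IκB proteins, had log2 ratios of 1.17 and 1.01. The subunit genes differed less: Rel stood at 114 CPM in members and 55.5 CPM in Il1b-low barcodes, Nfkb1 at 57.0 and 56.0 CPM, and Rela at 39.9 and 42.2 CPM. Of the 6 genes of the list with enough UMIs in the wild-type library, 2 were called higher, Nfkbia and Nfkbiz, beside 2.27% of all genes.

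The sequences upstream of these genes are shown because Ccl3, Cxcl2, Nfkbia and Tnfaip3 had higher sums in I-PpoI members, chosen by Il1b. Each is the run of 250 bases before the RefSeq transcription start in GRCm38.p6, 5′ to 3′ on the gene's strand, with matches to the κB consensus, the site bound by NF-κB, or to the TATA box TATAAA in capitals. Il1b lies at chr2:129371140-129371389 (minus strand), Ccl3 at chr11:83649379-83649628 (minus), Cxcl2 at chr5:90903649-90903898 (plus), Nfkbia at chr12:55492648-55492897 (minus) and the first of the Tnfaip3 starts at chr10:19015411-19015660 (minus).
Il1b: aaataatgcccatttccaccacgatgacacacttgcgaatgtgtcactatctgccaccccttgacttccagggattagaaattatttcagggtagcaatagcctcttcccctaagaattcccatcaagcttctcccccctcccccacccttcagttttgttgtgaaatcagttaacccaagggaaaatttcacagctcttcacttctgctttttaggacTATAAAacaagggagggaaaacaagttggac
Ccl3: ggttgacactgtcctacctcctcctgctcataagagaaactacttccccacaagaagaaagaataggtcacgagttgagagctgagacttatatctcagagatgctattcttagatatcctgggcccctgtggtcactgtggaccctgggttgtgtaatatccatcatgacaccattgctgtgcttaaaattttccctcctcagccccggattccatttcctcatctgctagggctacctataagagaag
Cxcl2: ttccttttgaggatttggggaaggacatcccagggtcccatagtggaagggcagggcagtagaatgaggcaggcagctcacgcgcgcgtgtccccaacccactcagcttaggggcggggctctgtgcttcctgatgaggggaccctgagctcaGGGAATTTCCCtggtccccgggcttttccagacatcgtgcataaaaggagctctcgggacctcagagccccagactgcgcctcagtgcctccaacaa
Nfkbia: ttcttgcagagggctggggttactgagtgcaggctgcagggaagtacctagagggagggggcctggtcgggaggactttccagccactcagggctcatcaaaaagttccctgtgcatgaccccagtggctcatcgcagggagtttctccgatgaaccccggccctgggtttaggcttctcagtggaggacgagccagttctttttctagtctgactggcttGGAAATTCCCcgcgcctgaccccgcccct
Tnfaip3: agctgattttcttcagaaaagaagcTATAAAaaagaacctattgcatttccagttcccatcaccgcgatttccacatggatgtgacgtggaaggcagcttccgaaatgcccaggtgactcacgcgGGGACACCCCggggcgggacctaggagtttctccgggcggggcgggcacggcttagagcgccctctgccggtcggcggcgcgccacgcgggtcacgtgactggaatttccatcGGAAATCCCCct
Cxcl2 held 1 κB match, read on both strands, whose capitals begin 97 bases before the start. Nfkbia held 1 at 29 bases, and Tnfaip3 held 2, at 125 and 12 bases, besides a TATAAA match at 225 bases. The window of the other Tnfaip3 start, not printed, held neither. No match to the κB consensus lay in the windows of Il1b, Ccl3 or Tnf, which says only that these letters are not in these 250 bases. Of 32851 such windows of 27025 genes, 7.25% held a κB match on either strand, and 7.59% held a TATA box. The Il1b window has its TATA box 31 bases before the start. Of 9 genes searched, 6 matched the table, and Cd83, Ccl4 and Nfkbiz did not.

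Among the named genes of the I-PpoI library the highest log2 ratio, 2.57, belonged to the chemokine Cxcl2. Of 17 tested chemokines in the I-PpoI library 7 were called higher in members and 1 lower, beside 0.681% and 1.5% of all genes. Their median log2 ratio was 0.39. Cxcl2, which draws neutrophils through CXCR2, stood at 1557 CPM in I-PpoI members and 254 CPM in I-PpoI Il1b-low barcodes, a ratio of 6.12 (interval 5.79 to 6.47), with UMIs in 353 of 661 and 117 of 828 barcodes. Its relative Cxcl1 stood at 63.1 and 13.6 CPM. The monocyte chemokines Ccl2 and Ccl7 stood at 545 and 249 CPM in I-PpoI members and at 218 and 82.8 CPM in I-PpoI Il1b-low barcodes. Cxcl10, an interferon-induced ligand of CXCR3, stood at 126 CPM in members and 46.3 CPM in Il1b-low barcodes. Cxcl13, a B cell chemokine, was called lower at 7.41 and 33.4 CPM, but its UMIs sat in 6 members and 7 Il1b-low barcodes. Of the chemokine receptors, Ccrl2, which binds chemerin without signalling, was called higher at 301 CPM in members and 88.8 CPM in Il1b-low barcodes.

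In the wild-type library 2 of 8 tested chemokines were called higher in members, Ccl3 and Ccl4, and 2 lower, beside 2.27% and 6.25% of all genes. The lower ones were Ccl12, at 166 CPM in wild-type members and 462 CPM in wild-type Il1b-low barcodes, and Pf4, at 141 and 329 CPM. Neither was called lower in the I-PpoI library, where Ccl12 stood at 389 CPM in members and 285 CPM in Il1b-low barcodes and Pf4 at 326 and 335 CPM. The 20 Ccl12 UMIs of wild-type members came from 4 barcodes, and the difference between libraries was not tested. Cxcl2 held 28 UMIs in wild-type members, 21 of them in 1 barcode, and fell short of the UMI minimum there.

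Tnfsf9, Tnf and Osm were the cytokine genes called higher in I-PpoI members. Of 12 tested cytokine and growth factor genes in the I-PpoI library 3 were called higher in members and 0 lower, beside 0.681% and 1.5% of all genes. Tnfsf9, the ligand of the T cell receptor 4-1BB, stood at 151 CPM in I-PpoI members and 24.7 CPM in I-PpoI Il1b-low barcodes. Tnf stood at 110 and 35.1 CPM, a ratio of 3.12 (interval 2.66 to 3.68), and Osm, which encodes oncostatin M, at 64.1 and 18.9 CPM. Il6 and Il10 were near the floor, with 25 and 23 UMIs over all I-PpoI members. Of 10 tested costimulation genes 1 was called higher, the marker Cd83, beside 0.681% of all genes. Cd86 stood at 171 CPM in members and 115 CPM in Il1b-low barcodes.

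Fos, Atf3 and Dusp1 were among the immediate early genes, which cells switch on within minutes of a signal, that were called higher in members of both libraries. Of 22 tested in the I-PpoI library 12 were called higher in members and 0 lower, beside 0.681% and 1.5% of all genes. Their median log2 ratio was 1.15. In the wild-type library 10 of 12 tested were called higher and 0 lower, beside 2.27% and 6.25% of all genes. The median there was 2.12 beside −0.04 over all its genes. Fos, a subunit of the transcription factor AP-1, stood at 2743 CPM in I-PpoI members and 840 CPM in I-PpoI Il1b-low barcodes, and at 1434 CPM in wild-type members and 181 CPM in wild-type Il1b-low barcodes. Atf3, a stress-induced repressor of inflammatory genes, stood at 657 and 169 CPM in the I-PpoI library and at 705 and 80.1 CPM in the wild-type library. Dusp2, a phosphatase of MAP kinases, had the highest ratio of the list in the I-PpoI library (8.28, interval 6.63 to 10.4). Klf4 did not follow, with a log2 ratio of −0.04. Outside macrophages, Fos stood at 789 CPM in I-PpoI endothelial barcodes and 58.0 CPM in wild-type endothelial barcodes.

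Further genes with high ratios came from other roles. Ptgs2, which encodes the cyclooxygenase COX-2, stood at 103 CPM in I-PpoI members and 13.4 CPM in I-PpoI Il1b-low barcodes, with UMIs in 118 and 22 barcodes. Gadd45b, a gene induced by NF-κB and by stress, stood at 302 and 55.3 CPM. Clec4e, a receptor for microbial glycolipids and for a protein of dead cells, stood at 56.5 and 9.18 CPM, and Cd14, a co-receptor for lipopolysaccharide, at 1614 and 662 CPM. S100a8 and S100a9 also ranked high, but their UMIs sat in 19 and 16 members, and 45.8% of the S100a9 UMIs came from 1 barcode. The 239 Mucl1 UMIs came from 4 members, 93.3% of them from 1 barcode, and those of Atp6v1g3, a proton pump subunit of intercalated cells, from 5 members.

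In the I-PpoI library, genes of macrophage identity and antigen presentation were at similar levels in members and Il1b-low barcodes. Of 15 tested identity genes 0 were called in either direction in the I-PpoI library, with a median log2 ratio of −0.11, and of 8 MHC class II genes 0 were called, with a median of 0.09. Adgre1, which encodes F4/80, stood at 193 CPM in I-PpoI members and 199 CPM in I-PpoI Il1b-low barcodes. In the wild-type library 1 of 14 tested identity genes was called lower, beside 6.25% of all genes. It was Maf, at 133 CPM in members and 320 CPM in Il1b-low barcodes. Of the antigen presentation genes there, 0 of 7 of class II and 1 of 8 of class I were called lower, beside the same 6.25%. Of 18 lipid-associated macrophage genes in the I-PpoI library 4 were called lower and 0 higher, beside 1.5% and 0.681% of all genes. Spp1, which encodes osteopontin, stood at 721 CPM in members and 1859 CPM in Il1b-low barcodes, but the proximal tubule of that library held it at 45089 CPM. Trem2, a lipid receptor of that cell state, stood at 385 and 451 CPM, short of a call. Without the barcodes that carried few macrophage UMIs or other cell types' markers, 2 of 18 lipid-associated genes were called lower, beside 5 of 8535 genes in all. They were Fabp5 at 56.9 and 194 CPM and Gpnmb at 2.20 and 22.5 CPM.

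The libraries shared part of their higher calls. Over 1980 genes tested in both, 18 were called higher in I-PpoI members and 45 in wild-type members, and 15 stood in both lists, which is 83.3% of the I-PpoI list and 33.3% of the wild-type list. The 15 were Atf3, Bcl2a1d, Btg2, Ccl3, Ccl4, Cd83, Dusp1, Fos, Ier2, Junb, Nfkbia, Nfkbiz, Ptger4, Rgs1 and Zfp36. Of the genes called lower, 13 in I-PpoI and 121 in wild-type members, 10 stood in both lists, among them Hba-a1, Hbb-bs, Fxyd2 and Fabp4. Over all 1980 genes the Pearson correlation between the log2 ratios of the libraries was 0.52. All 18 genes of the higher I-PpoI list had a log2 ratio above 0 in the wild-type library. Cd83, Ccl3, Ccl4, Nfkbia, Nfkbiz and immediate early genes such as Fos were thus higher in the 27 wild-type members than in their own Il1b-low barcodes, as they were in I-PpoI members over theirs. Hspa1a, which encodes a heat shock protein of the HSP70 family, stood at 1384 CPM in wild-type members and 312 CPM in wild-type Il1b-low barcodes, and at 438 and 317 CPM in the I-PpoI library.

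**Figure D3:**
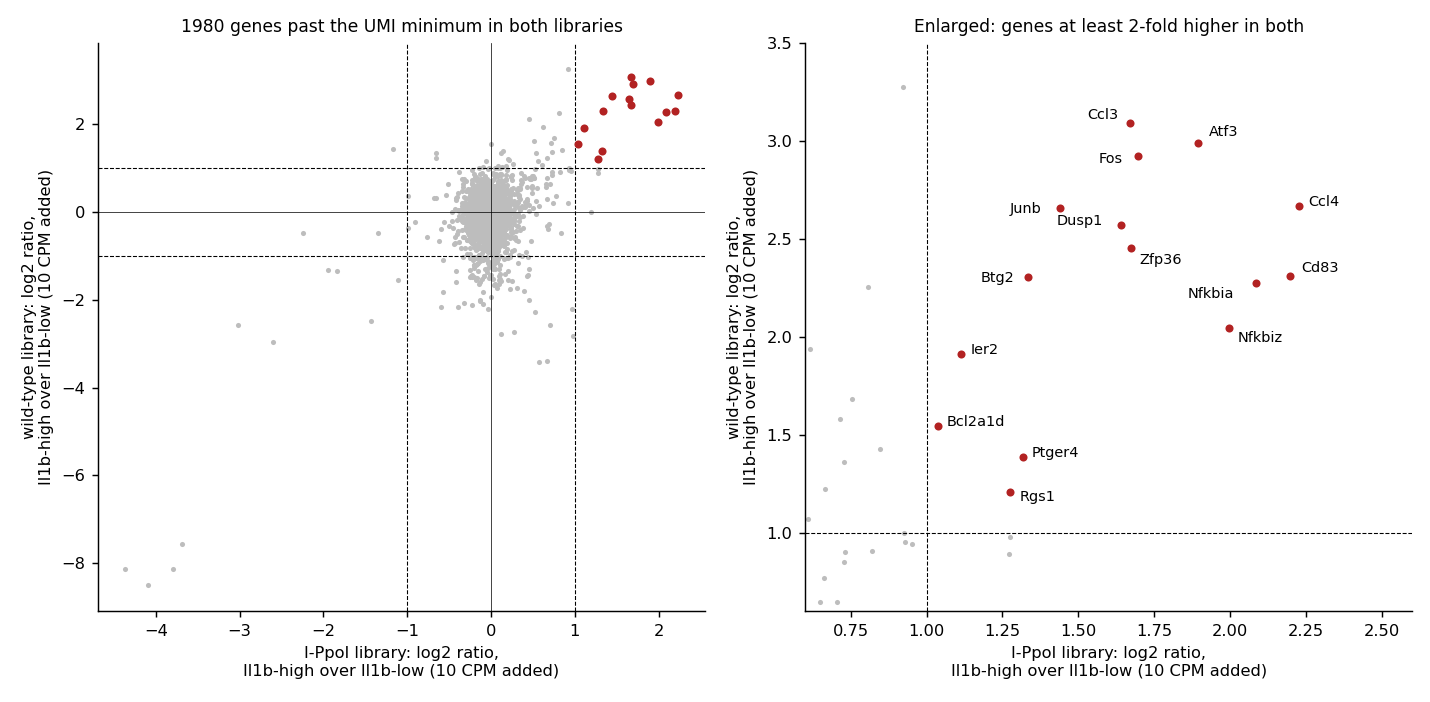
Log2 ratio of members over Il1b-low barcodes for 1980 genes, with the I-PpoI library on the x axis and the wild-type library on the y axis, and an enlarged view on the right. The 15 genes called higher in both libraries are labelled, among them Ccl3, Ccl4, Cd83, Nfkbia and Nfkbiz, and lines mark the 2-fold limits.

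Marker levels were graded within the members. When the 661 I-PpoI members were split into 4 bins of nearly equal size by Il1b CPM, median depth was 9300, 8296, 8367 and 7508 UMIs from the lowest to the highest bin, and mitochondrial shares lay between 2.73% and 2.92%. Il1b set these bins, so only other genes are described, and the bins are no replicates. Cd83 stood at 117, 281, 444 and 711 CPM from the lowest to the highest bin. Cxcl2 stood at 602, 903, 1982 and 3216 CPM, and Nfkbia at 415, 762, 1199 and 1609 CPM. Both, like Cd83, increased at each step. Ccl3 stood at 409, 719, 869 and 1054 CPM, Cd14 at 890, 1348, 1902 and 2644 CPM, and Nlrp3 at 42.4, 66.6, 85.9 and 125 CPM.

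Tnf lagged behind, with 67.4, 72.7, 114 and 210 CPM, so that the lower bins hardly differed. C1qa was flat at 5716, 6166, 6110 and 5688 CPM, and Csf1r stood at 522, 612, 619 and 636 CPM. Il1rn, the antagonist, held 38.6, 31.6, 36.5 and 44.3 CPM, and Ccl2 held 517, 615, 452 and 613 CPM without an order. Among genes of lipid-associated macrophages, Spp1 stood at 1479, 359, 566 and 224 CPM and Trem2 at 429, 433, 371 and 279 CPM. One member held 1376 of the 4376 Spp1 UMIs of I-PpoI members, so the Spp1 order rests in part on that barcode.

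**Figure D4:**
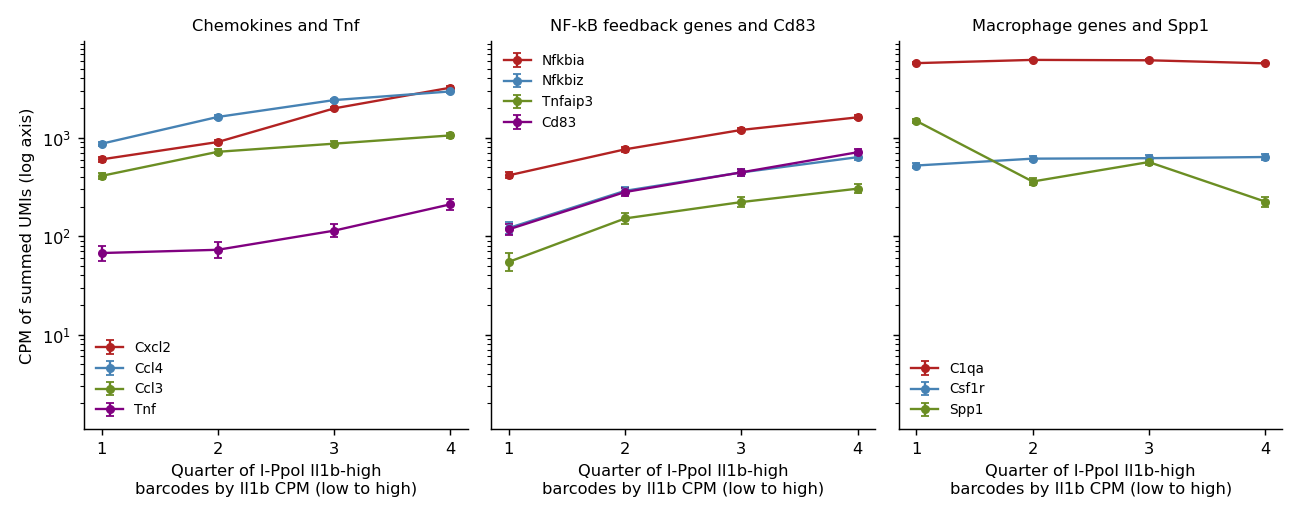
Summed level (CPM, log axis) of 11 genes in the 4 bins of I-PpoI members by Il1b level, low to high, with exact 95% Poisson intervals. Chemokine and NF-κB genes such as Cxcl2 (602 to 3216 CPM) and Cd83 (117 to 711 CPM) climb over the bins, while C1qa stays level.

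Members of the I-PpoI library were finally set against those of the wild-type library, a comparison that rests on 120631 UMIs in 27 wild-type members, where 1 UMI equals 8.29 CPM. Of 7512 tested genes 1250 (16.6%) were called higher in I-PpoI members and 269 (3.58%) lower; with the ratios scaled to a median of 1 the split was 870 higher and 459 lower. Between Il1b-low barcodes of the libraries 436 of 8112 (5.37%) were called higher in I-PpoI and 135 (1.66%) lower. The median log2 ratio of all genes was 0.17 in members and 0.09 in Il1b-low barcodes. The minimum of 50 UMIs was taken over both sums, and with 6070210 UMIs in I-PpoI members a gene could pass it through that library alone, so the filter favours higher calls, and the list counts and medians of this comparison are descriptions of the genes that passed. With 200 UMIs required per gene, 462 genes of 3269 were higher in I-PpoI members and 108 lower.

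Of the population's other markers, Ccl3 and Ccl4 were lower in I-PpoI members. The limit of 5 UMIs let in members down to 185 CPM of Il1b in the I-PpoI library and 809 CPM in the wild-type library. The median member held 1885 CPM of Il1b in the I-PpoI and 1805 CPM in the wild-type library. Summed over members, Il1b stood at 2293 and 2454 CPM. From the lowest to the highest Il1b bin of I-PpoI members, Ccl3 went from 409 to 1054 CPM and Ccl4 from 868 to 2948 CPM. The part of Il1b level in the ratios below was not tested. Ccl3 stood at 731 CPM in I-PpoI members and 1840 CPM in wild-type members, a ratio of 0.397 (interval 0.347 to 0.457), and Ccl4 at 1862 and 5347 CPM, a ratio of 0.348 (interval 0.322 to 0.377). In wild-type members Ccl4 UMIs came from 21 of 27 barcodes, with 95 of 645 in 1 of them. For Cd83 the ratio was 0.791 (interval 0.606 to 1.05), for Nfkbiz 1.10 (interval 0.801 to 1.56) and for Tnf 1.02 (interval 0.591 to 1.92), intervals that hold equality and also differences of a size that 27 barcodes cannot resolve. The NF-κB list had a median log2 ratio of 0.12, with 2 of 23 genes called higher and 0 lower, beside 16.6% and 3.58% of all genes.

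For Ccl2, Ccl7 and Cxcl2 the direction was the opposite. Ccl2 stood at 545 CPM in I-PpoI members and 41.5 CPM in wild-type members, a ratio of 13.1 (interval 5.63 to 40.5), but the wild-type value is 5 UMIs. Ccl7 held 1510 UMIs in I-PpoI members and 0 in wild-type members, so it was at least 10.0-fold higher when the floor is set at 3 UMIs over the wild-type sum. Cxcl2 stood at 1557 and 232 CPM, a ratio of 6.71 (interval 4.64 to 10.1), with 21 of the 28 wild-type UMIs in 1 barcode. Of 16 tested chemokines 11 were called higher in I-PpoI members and 2 lower, beside 16.6% and 3.58% of all genes, with a median log2 ratio of 1.17. In Il1b-low barcodes 7 of 16 were higher and 1 lower, beside 5.37% and 1.66% of all genes, with a median of 0.85. In I-PpoI endothelial barcodes Cxcl2 and Ccl2 stood at 18.5 and 30.3 CPM.

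Ccr1, the receptor of Ccl3 and Ccl7, held 1232 UMIs in 437 I-PpoI members and 0 UMIs in wild-type members, at least 8.16-fold higher. Cd38, an NAD-consuming surface enzyme, was at least 8.70-fold higher on the same floor, and Vcam1, an adhesion molecule, at least 7.32-fold. The complement genes C4b and Cfp, which encode component C4 and properdin, were at least 5.35-fold and 4.55-fold higher. The lower ends of the exact intervals were 8.12 for Ccl7, 6.63 for Ccr1, 7.07 for Cd38, 5.94 for Vcam1, 4.34 for C4b and 3.69 for Cfp. These genes were spread over many barcodes, with UMIs of C4b in 215 and of Cfp in 300 of 661 I-PpoI members. They were not particular to members: Ccr1, Cd38, Vcam1, C4b and Cfp were also called higher between Il1b-low barcodes. There Cd38 stood at 159 CPM in the I-PpoI and 1.27 CPM in the wild-type library, and C4b at 134 and 0 CPM.

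Of 17 tested lipid-associated genes 9 were called higher in I-PpoI members and 1 lower, beside 16.6% and 3.58% of all genes, with a median log2 ratio of 1.13. In Il1b-low barcodes 10 of 18 were higher and 1 lower, beside 5.37% and 1.66% of all genes, with a median of 1.22. Apoe, the gene of a lipid carrier that macrophages secrete, stood at 37888 CPM in I-PpoI members and 4501 CPM in wild-type members, a ratio of 8.42 (interval 7.74 to 9.17), and its wild-type UMIs came from 14 of 27 barcodes. In Il1b-low barcodes Apoe stood at 41675 CPM in the I-PpoI and 7761 CPM in the wild-type library, and in endothelial barcodes at 847 and 1059 CPM. Trem2 stood at 385 CPM in I-PpoI members and 16.6 CPM in wild-type members, a ratio of 23.2 (interval 6.41 to 192) on 2 wild-type UMIs in 1 barcode. Pla2g7, a lipoprotein-associated phospholipase, had a ratio of 31.0 (interval 8.56 to 256), again on 2 wild-type UMIs.

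Among antigen presentation, interferon and heat shock genes, more were called lower than higher in I-PpoI members, and about as many or more were not called. The 8 tested MHC class II genes summed to 40590 CPM in I-PpoI members and 83486 CPM in wild-type members. Of them 2 were called lower and 0 higher, beside 3.58% and 16.6% of all genes. H2-Ab1, a class II β chain, stood at 6965 CPM in I-PpoI members and 16306 CPM in wild-type members, a ratio of 0.427 (interval 0.408 to 0.447). Cd74, the invariant chain, stood at 17187 and 33424 CPM, short of the call, with a ratio of 0.514 (interval 0.498 to 0.531). Of 8 class I genes 4 were called lower and 0 higher, beside 3.58% and 16.6% of all genes. Of 15 interferon-stimulated genes 7 were lower and 0 higher, among them Bst2 with a ratio of 0.353 (interval 0.260 to 0.489). Il1b-low barcodes had medians of −0.80, −0.75 and −0.43 for these lists, against −0.84, −1.01 and −0.94 in members.

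Of 12 heat shock genes 6 were called lower and 0 higher in I-PpoI members, beside 3.58% and 16.6% of all genes. In Il1b-low barcodes 1 of 12 was lower and 1 higher, beside 1.66% and 5.37% of all genes. Hspa1b stood at 358 CPM in I-PpoI members and 1376 CPM in wild-type members, and Hspa1a had a ratio of 0.316 (interval 0.270 to 0.372). Mitochondrial UMIs were 2.78% in I-PpoI members and 4.91% in wild-type members, and their part in these differences was not tested. Defb1, Tmem213 and Atp6v1g3, genes of distal tubule and intercalated cells, ranked among the 15 lowest ratios almost wholly through 1 wild-type barcode for each gene. Their direction turned when the mitochondrial limit was lowered to 25%, to log2 ratios of 1.11, 0.79 and 1.20. Ldhb and Chchd10 had 84.6% and 80% of their wild-type UMIs in 1 barcode. Others of the 15 were spread over more wild-type members: Lst1 over 24 (ratio 0.236), Phf11b over 20 (0.151) and Glipr1 over 19 (0.128).

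**Figure D5:**
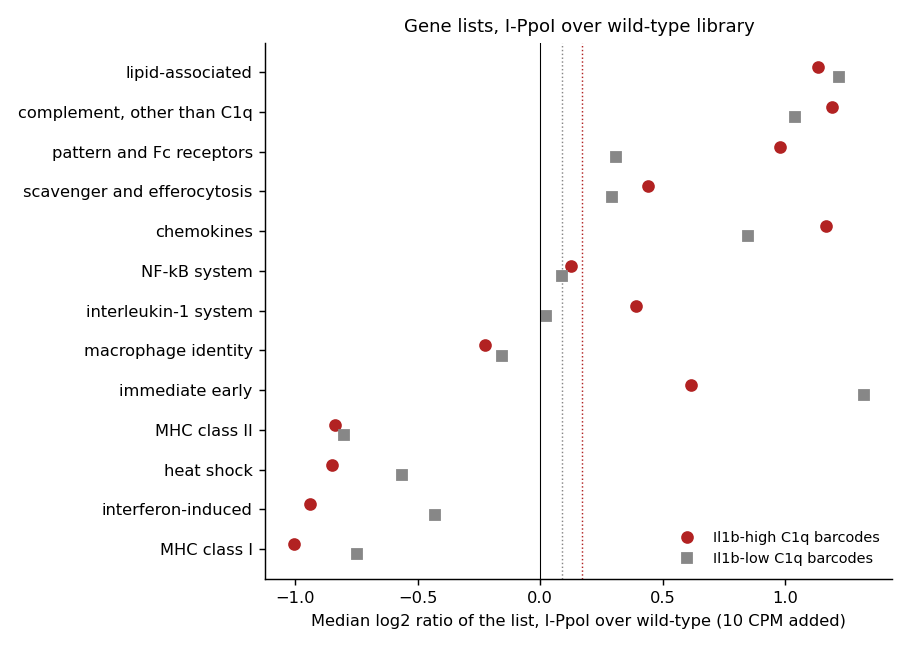
Median log2 ratio of the I-PpoI over the wild-type library for 13 gene lists, in members (red circles) and Il1b-low barcodes (grey squares), with dotted lines at the median of all genes. The lipid-associated list lies at 1.13 in members and 1.22 in Il1b-low barcodes, and MHC class II lies at −0.84 in members and −0.80 in Il1b-low barcodes.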

How the data were processed

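Single-cell RNA-seq was measured in 2 libraries of kidney cortex, 1 I-PpoI and 1 wild-type. The deposited matrices hold counts of UMIs for 31053 genes, which the authors made with Cell Ranger on mm10 (version 3.1 per the labels' protocols, 6.0.2 per the file headers); the labels also name Seurat 3. Depth was 37811289 UMIs in the I-PpoI and 27793633 UMIs in the wild-type library.

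From these, barcodes were chosen by the rule above in Python 3.11.15 (numpy 2.4.6, scipy 1.17.1, pandas 2.3.3). Counts were summed per library and population and scaled to CPM. Ratios have exact conditional binomial intervals, levels exact Poisson intervals, and shares exact Clopper-Pearson intervals, all at 95%. Log2 ratios have 10 CPM added, so they understate differences of low genes. Shares at equal depth were computed after thinning to 2000 or 3000 UMIs. No test was run, since each group is 1 library. Doublets were scored with Scrublet in scanpy 1.11.5 and kept: automatic calls were 30 I-PpoI and 5 wild-type barcodes, and the highest 4% of scores held 36 of 661 I-PpoI members and 0 of 27 wild-type members. The functions were tested on simulated data. Figures were drawn with matplotlib 3.10.9.

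Genes were named by a rule: the markers, members of the interleukin-1, NF-κB, chemokine, cytokine, costimulation and immediate early lists with 50 UMIs, the 15 genes with the highest and lowest log2 ratios among those with 100 UMIs, and up to 4 examples of other lists. Fos in endothelium, Spp1 in tubules and the 5 genes still lower after the step on macrophage and other types' markers were named after their values were seen. Mitochondrial, ribosomal, haemoglobin and unnamed genes were left out of the ranking. The members and the 34 lists were chosen with earlier results of these data known. Alternatives changed the rule's limits, the filters, the added CPM, the scaling and the depth.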

Additional observations from a re-analysis of the deposited data

How the results depend on the processing

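The share ratio of 3.80 kept its direction under every alternative run. At limits of 3 to 10 Il1b UMIs it lay between 2.91 and 6.60 (10 Il1b UMIs). With any Il1b UMI it was 1.64, and with limits of 1 or 2 Il1b UMIs it lay between 1.40 and 2.09 after thinning to 3000 UMIs and between 1.76 and 2.41 at 2000. The 64 genes higher in I-PpoI members over Il1b-low barcodes became 115 with 1 CPM added and 32 with 50 CPM added. The 141 lower genes became 394 and 26 under those settings, 89 with 6 C1q UMIs, and 25 after thinning to 3000 UMIs before or 2000 UMIs after the rule. They became 72 with 200 UMIs per gene, 68 with Il1b-low barcodes weighted to members' depth and 25 without genes carried by 1 barcode. Without barcodes carrying few macrophage UMIs or other types' markers they became 5. The 45 genes higher in wild-type members over Il1b-low barcodes became 81 with 10 Il1b UMIs, 23 after thinning to 2000 UMIs, 108 with 20 UMIs per gene and 17 with 200. The 124 lower genes there became 59 with 3 Il1b UMIs, 265 with 10, 75 without the highest doublet scores, 34 after thinning to 2000 UMIs, 483 with 20 UMIs per gene, 14 with 200 and 36 with 50 CPM added.

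Between libraries, the 1250 genes higher in I-PpoI members became 784 with 3 Il1b UMIs, 2085 with 10, 523 and 542 after thinning to 3000 and 2000 UMIs, 462 with 200 UMIs per gene, and 1911 and 121 with 1 and 50 CPM added. The 269 lower genes became 427 with 10 Il1b UMIs, 160 after thinning to 2000 UMIs, 108 with 200 UMIs per gene, 508 and 66 with 1 and 50 CPM added and 459 at a median ratio of 1. The cause was not tested, beyond the fewer genes or barcodes that a setting keeps. Of 152 named genes past 2-fold, 145 kept their sign under every alternative run. The exceptions were Mucl1 (−1.59 with 10 Il1b UMIs, −0.94 thinned to 3000 UMIs), Lcn2 (0.54 thinned to 3000 UMIs), Slc12a1 and Umod (0.028 and 0.046 weighted for depth) and Defb1, Tmem213 and Atp6v1g3 between libraries (1.11, 0.79 and 1.20 with a mitochondrial limit of 25%). The step on macrophage and other types' markers and those without genes carried by 1 barcode and with thinning after the rule were chosen after seeing the data. In the 27 wild-type members 1 UMI is 8.29 CPM, so low genes cannot be resolved there. No paired analysis was possible because each group is 1 library.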

Other observations

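Of 16 tested genes that p53 induces, 3 were called higher in members than in Il1b-low barcodes of the I-PpoI library, beside 0.681% of all genes, and 0 lower, with a median log2 ratio of 0.01 beside −0.05 over all genes. The 3 were Cdkn1a, the cell cycle inhibitor p21, at 277 CPM in members and 113 CPM in Il1b-low barcodes, Pmaip1, the cell death factor Noxa, at 89.0 and 30.6 CPM, and Btg2, which is also an immediate early gene. Cdkn1a stood at 66.3 CPM in wild-type members on 8 UMIs, a ratio of I-PpoI over wild-type members of 4.17 (interval 2.11 to 9.68). Of 12 tested p53-induced genes 4 were called higher between members and 1 lower, beside 16.6% and 3.58% of all genes. Their median log2 ratio was 0.11 beside 0.17 over all genes. Between Il1b-low barcodes 3 of 12 were higher, Cdkn1a among them, and 0 lower, beside 5.37% and 1.66% of all genes. Of 10 tested proliferation genes 0 were called in the I-PpoI library.

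Of 18 tested interferon-stimulated genes in the I-PpoI library, 1 was called higher in members and 2 lower, beside 0.681% and 1.5% of all genes, with a median log2 ratio of −0.27. Irf1, a transcription factor that NF-κB signals also induce, stood at 93.1 CPM in members and 40.3 CPM in Il1b-low barcodes. Ifit3 and Rsad2, antiviral effectors, stood at 8.57 and 8.90 CPM in members and 27.7 and 31.8 CPM in Il1b-low barcodes, in 21 and 24 members.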
